A study of Homo sapiens with 2 samples.

Results

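The regions described here were the MTR4-HA RIP-seq peaks that lay in later introns of protein-coding genes. In RIP-seq, RNA that comes down with an antibody is sequenced, and a peak is a stretch of the genome at which a caller found such RNA. The cells were PLC/PRF5, an established hepatocellular carcinoma line that overexpressed MTR4 with an HA tag from a plasmid, and the overexpression was shared by both libraries. From nuclear lysates, anti-HA antibody gave 1 library and IgG gave the other. The label of the IgG library titles it an input, while its antibody is given as IgG. The list was called from the anti-HA library, so no region has a replicate, and how the IgG library entered the call was not stated. A region was counted when its midpoint lay in intron 2 or a later intron of the canonical transcript of a protein-coding gene. The midpoint also had to lie outside every annotated exon, outside the first intron of any other canonical transcript, and more than 1000 bases from every canonical 5′ end. On hg19, 969 of the 3302 peaks on chromosomes 1 to 22 and X met these conditions (29.3%, 95% Wilson interval 27.8 to 30.9), out of 3304 listed positions. They lay in 794 introns of 516 genes. Every peak was 400 bases wide, and no height, read count or p-value was listed for any of them. The same list held 318 peaks in first introns and 693 in coding exons. Nearly all later-intron peaks came from 4 chromosomes. Chromosome 3 held 405 and chromosome 15 held 250, followed by 155 for chromosome 22 and 151 for chromosome 10. Chromosomes 7 and 20 held 3 each, and chromosomes 4 and 14 held 1 each. Hence a gene on any other chromosome could not be judged from this list.

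MTR4 is an RNA helicase of the nucleus that hands RNA to the exosome, a multi-subunit machine that digests RNA from its 3′ end. Introns are copied into pre-mRNA with the exons and cut out by the spliceosome, and the excised RNA is normally destroyed in the nucleus. Some introns also carry small RNAs, such as snoRNAs, which are trimmed out of the intron after splicing. Sequence that lies far inside an intron is therefore found in pre-mRNA or in intron RNA, and not in a finished mRNA of that transcript.

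The study asked how MTR4 acts on splicing of glycolytic genes, and PKM, which encodes the pyruvate kinases PKM1 and PKM2, is shown first for that reason. PKM has 10 introns in its canonical transcript, and 2 later-intron peaks were listed in it. Peak 2417 lay in intron 3, with its midpoint 528 bases from the nearest exon. Peak 2416 lay in intron 8, with its midpoint 1922 bases from the nearest canonical exon and 247 bases from an exon of another transcript. Introns are numbered here along the canonical transcript, and the study numbers the intron of this peak otherwise. The study also lists primers to assay this peak by RIP and quantitative PCR. From that assay it reports MTR4 binding to intronic regions of PKM, which is evidence apart from this list. Both peaks were clear of every exon over all 400 bases. Their GC contents were 48.3% and 41.8%. Each held 1 match to CCA(G/C/U)C. From its whole peak list the study derived a motif with a G after CCA. In its text the letters in parentheses that come next can be read as replacing that G or as following it. Its figure legend gives C, U or G in parentheses after CCAG, and there they follow the G. The pattern of 5 letters used here is thus not the form in that legend. It is the shorter and more permissive of the readings. The other reading, which keeps the G after CCA, matched 1 of the 2 PKM peaks and 445 of all 969 (45.9%, 42.8 to 49.1). That share was 2.21 percentage points above first-intron peaks. Windows without a peak were not counted for it, so it has no wider background. The central 300 bases are given on the strand of the gene, with matches to the pattern of 5 letters in capitals. That match of peak 2416 lay outside its central 300 bases, so its sequence carries no capitals. The sequence does hold ccagtc near its start, which is a match to the longer form.
PKM peak 2417, chr15:72509072-72509371 (minus strand): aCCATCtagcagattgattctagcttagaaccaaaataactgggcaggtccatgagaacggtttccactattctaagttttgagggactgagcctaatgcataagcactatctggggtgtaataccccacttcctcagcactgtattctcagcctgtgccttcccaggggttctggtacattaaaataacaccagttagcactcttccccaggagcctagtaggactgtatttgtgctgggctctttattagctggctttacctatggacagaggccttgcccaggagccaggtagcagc
PKM peak 2416, chr15:72496997-72497296 (minus strand): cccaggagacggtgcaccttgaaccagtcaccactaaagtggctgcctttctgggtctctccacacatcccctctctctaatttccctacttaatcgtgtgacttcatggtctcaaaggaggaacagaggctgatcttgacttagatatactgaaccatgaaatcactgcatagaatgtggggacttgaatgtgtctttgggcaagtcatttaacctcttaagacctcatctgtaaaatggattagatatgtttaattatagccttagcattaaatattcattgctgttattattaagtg

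The study also derived a poly(A)-like motif, from its whole peak list and not from later-intron peaks alone. It was held by 30 later-intron peaks. Stretches of 90 bases around it are given for 4 of them to show what surrounds the match, again on the strand of the gene and with the motif in capitals. CACNB2 encodes a subunit of a calcium channel, and UBE3A a ubiquitin ligase. ROBO2 encodes a receptor for SLIT proteins that guides axons, and the product of SPG11 acts in the re-formation of lysosomes. In each of these 4 the match was a run of A after a single T.
CACNB2 peak 288, chr10:18752251-18752340 (plus strand): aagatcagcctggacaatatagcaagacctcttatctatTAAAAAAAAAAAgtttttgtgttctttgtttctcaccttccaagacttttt
UBE3A peak 1774, chr15:25641895-25641984 (minus strand): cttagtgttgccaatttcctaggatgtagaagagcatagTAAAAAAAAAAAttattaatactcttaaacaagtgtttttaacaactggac
SPG11 peak 2016, chr15:44914115-44914204 (minus strand): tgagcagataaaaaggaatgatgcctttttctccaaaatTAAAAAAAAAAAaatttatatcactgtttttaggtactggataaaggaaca
ROBO2 peak 4497, chr3:77450375-77450464 (plus strand): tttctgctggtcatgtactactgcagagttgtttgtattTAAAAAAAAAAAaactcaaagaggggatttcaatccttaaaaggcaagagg

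Other peaks met the conditions but reached into exons. Those of CTDSPL2, which encodes a phosphatase-like protein, and SLC4A7, which encodes a bicarbonate transporter, are given as examples, because their midpoints were among the 5 nearest to a canonical exon. Capitals mark exon bases of the host transcript within the central 300 bases. The midpoint of the CTDSPL2 peak was 4 bases from an exon in an intron of 104 bases, and both flanking exons fell within the stretch. The midpoint of the SLC4A7 peak was 5 bases from the upstream exon, and its remaining bases ran into intron 6.
CTDSPL2 peak 2005, chr15:44806712-44807011 (plus strand): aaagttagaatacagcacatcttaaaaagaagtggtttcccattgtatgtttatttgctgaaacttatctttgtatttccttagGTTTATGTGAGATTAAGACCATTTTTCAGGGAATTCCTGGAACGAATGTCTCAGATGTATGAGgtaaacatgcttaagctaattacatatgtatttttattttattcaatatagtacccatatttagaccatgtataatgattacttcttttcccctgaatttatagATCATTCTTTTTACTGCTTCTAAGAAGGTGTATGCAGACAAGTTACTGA
SLC4A7 peak 4038, chr3:27475252-27475551 (minus strand): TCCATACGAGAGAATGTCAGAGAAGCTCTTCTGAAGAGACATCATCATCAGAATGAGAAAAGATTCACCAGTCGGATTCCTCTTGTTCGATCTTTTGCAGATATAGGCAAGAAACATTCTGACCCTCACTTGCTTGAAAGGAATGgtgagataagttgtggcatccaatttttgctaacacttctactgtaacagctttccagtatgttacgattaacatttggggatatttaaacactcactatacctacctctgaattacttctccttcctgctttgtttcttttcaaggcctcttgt

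Overlap with exons was then counted for the whole set. Of 969 peaks, 327 shared at least 1 base with an annotated exon (33.7%, 30.8 to 36.8), although the midpoint of every peak was intronic by construction. A canonical exon of the host transcript was reached by 289 of them. Of these, 114 reached only the upstream exon, 107 only the downstream exon and 68 both. A further 38 reached only exons outside the host's canonical transcript. The other 642 peaks were clear of every exon over all 400 bases. Overlap went with short introns, at 167 of 205 peaks in introns under 1 kb (81.5%, 75.6 to 86.2) and 53 of 515 in introns of 5 kb or more (10.3%, 7.95 to 13.2). Part of this was fixed by the width of a peak. In 99 of the 969 the intron was shorter than the peak, which then had to touch an exon. Among first-intron peaks, 26 of 318 overlapped an exon (8.18%, 5.64 to 11.7). First introns are mostly long, and their peaks had to lie over 1000 bases from the 5′ end, so this difference was not tested. The midpoint was a median of 1114 bases from the nearest canonical exon and 662 bases from the nearest exon of any transcript. In the 778 peaks whose intron also held windows without a peak, the median distance to a canonical exon was 2224 bases. Windows of the same introns had a median of 2537 bases. Of all later-intron peaks, 437 lay over 1000 bases from every exon (45.1%, 42.0 to 48.2) and 106 over 10000 bases (10.9%, 9.13 to 13.1).

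To put the counts on a common scale, peaks were divided by the later-intron sequence in which a midpoint was allowed, 203.5 Mb on the 6 chromosomes. Later introns held 4.75 peaks per Mb (exact Poisson 95% interval 4.46 to 5.06), and first introns held 5.09 per Mb (4.55 to 5.68). The intervals overlapped. Short introns were the densest, at 42.8 peaks per Mb under 1 kb (37.1 to 49.1). The value was 8.18 per Mb from 1 to 2 kb, 6.81 from 2 to 5 kb and 5.06 from 5 to 10 kb. Introns of 10 to 50 kb held 2.65 per Mb (2.27 to 3.07), and those of 100 kb or more held 2.96 (2.48 to 3.52). Above 10 kb the 3 length classes did not differ beyond their intervals. When only the 640 peaks clear of exons on these chromosomes and the matching sequence were counted, introns under 1 kb still held 25.9 per Mb (18.3 to 35.6), against 2.91 at 100 kb or more (2.42 to 3.46). The 205 peaks in introns under 1 kb made up 21.2% of the set, and those introns made up 2.35% of the sequence.

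Density was also lower farther from exons. Sequence with a midpoint under 200 bases from an annotated exon held 21.1 peaks per Mb (18.9 to 23.5), and sequence at 200 to 500 bases held 6.85 (5.71 to 8.16). From 500 bases to 5 kb the values stayed between 3.50 and 3.98 per Mb. The lowest value, 1.84 (1.46 to 2.29), stood at 10 to 50 kb. Beyond 50 kb it was 4.62 (2.99 to 6.82), from 25 peaks only. Chromosomes differed in the same measure. The value was highest on chromosome 22, at 14.3 per Mb, then 9.71 for chromosome 15, 6.84 for chromosome 3 and 3.64 for chromosome 10. Chromosome 20 held 0.167 per Mb and chromosome 7 held 0.0623.

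**Figure D1:**
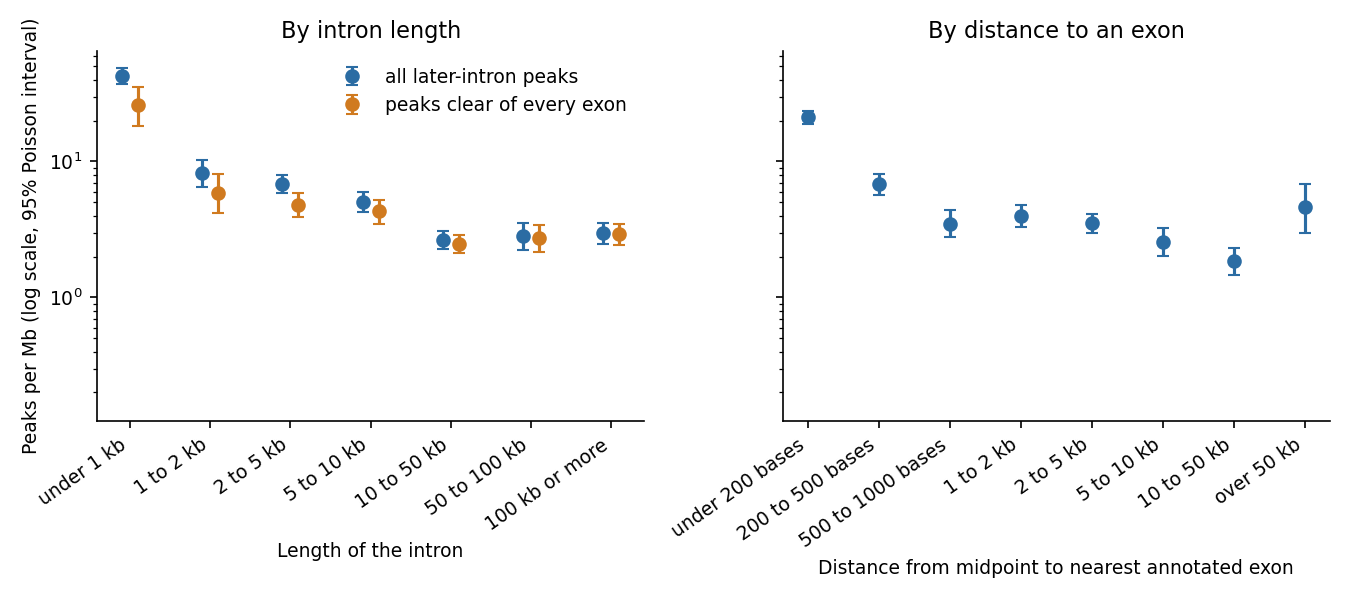
Listed later-intron peaks per Mb of allowed sequence on a log axis, by intron length (left) and by distance of the midpoint from the nearest annotated exon (right), with exact Poisson 95% intervals. Density was 42.8 per Mb in introns under 1 kb and between 2.65 and 2.96 above 10 kb, and leaving out peaks that touch an exon lowered the value for introns under 1 kb to 25.9.

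Density varied less with the rank of an intron in its gene. The median rank was 6, and ranks ran from 2 to 85. Density was 3.97 peaks per Mb in intron 2 (3.38 to 4.62), 4.40 in intron 3, 4.43 in introns 4 to 5, 5.28 in introns 6 to 10 and 5.33 after the 10th (4.72 to 5.99). The ratio of intron 2 to introns after the 10th was 0.745 (0.614 to 0.903). Among peaks clear of exons this ratio was 0.987 (0.784 to 1.24). The last intron held 4.72 per Mb (3.72 to 5.91) and all other later introns held 4.76. The highest rank belonged to HERC2, a giant ubiquitin ligase, with a peak in intron 85 of 92. It was followed by HERC1, its relative, with a peak in intron 77 of 77. The next were ITPR1, a calcium channel of the endoplasmic reticulum, in intron 60 of 61, VPS13C, a lipid transfer protein, in intron 59 of 84, and DOCK3, an exchange factor for Rac, in intron 48 of 52.

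Peaks were next placed along their introns, from the 5′ splice site to the 3′ splice site. Of 969 midpoints, 543 lay nearer the 5′ splice site than the 3′ splice site (56.0%, 52.9 to 59.1), and 50.1% of the allowed positions of the same introns did so. In introns of 5 kb or more the share was 312 of 515 (60.6%, 56.3 to 64.7), and in introns of 50 kb or more it was 138 of 210 (65.7%, 59.1 to 71.8). In shorter introns, under 5 kb, it was 231 of 454 (50.9%, 46.3 to 55.5). When introns of 50 kb or more were cut into 5 equal segments, the segments held 29.5%, 24.8%, 19.5%, 17.6% and 8.57% of the peaks from the 5′ end to the 3′ end. First introns of 5 kb or more had the like share, 194 of 304 (63.8%, 58.3 to 69.0), which is 3.23 percentage points above the later introns (Fisher's exact test, two-sided, p = 0.372). This p, as all below, describes peaks of 1 list, which are not replicates. Positions within 1000 bases of a 5′ end were not allowed, which takes sequence from the 5′ side of first introns. The shares of first and later introns thus rest on unlike allowed sequence.

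The share differed between genes with 1 such peak and genes with several. In introns of 5 kb or more, 169 genes held 1 such peak each, and 52.1% of these lay towards the 5′ splice site (44.6 to 59.5). In genes with 2 or more, 346 peaks gave 64.7% (59.6 to 69.6). With every one of the 249 genes weighted equally the mean share was 54.7%, and with 1 peak per gene it was 54.6% (48.4 to 60.7). Without FNDC3B, the gene with the most peaks, the share was 59.6%. No such values were computed for introns of 50 kb or more, where intron 3 of FNDC3B held 16 of the 210 peaks. Intron 2 of IGF1R and intron 4 of ROBO1 held 13 each. Chromosome 15 had the highest share in introns of 5 kb or more, at 65.9% (57.4 to 73.5), followed by chromosome 3 at 60.5% (53.9 to 66.7). Chromosome 10 was at 57.3% (47.6 to 66.4) and chromosome 22 at 54.8% (42.5 to 66.6).

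**Figure D2:**
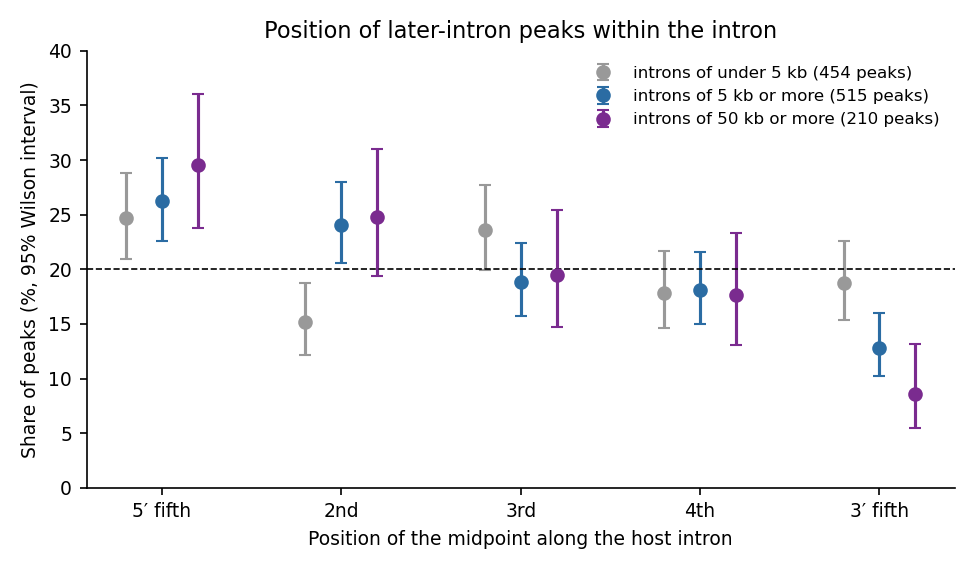
Share of later-intron peaks in each of 5 equal segments of the host intron, in percent with Wilson 95% intervals, for introns under 5 kb, of 5 kb or more and of 50 kb or more (the last are part of the second). The dashed line is an even spread. In introns of 50 kb or more the share fell from 29.5% in the 5′ segment to 8.57% in the 3′ segment. Peaks that share an intron or a gene were counted singly.

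Since the study concerns alternative splicing, introns that hold an exon of another transcript of the same gene were counted. They carried 294 of the 969 peaks (30.3%, 27.5 to 33.3). Of all allowed later-intron sequence 35% lay in such introns, and 23.7% did once the length classes were weighted as in the peaks. Both values are needed, because long introns hold an alternative exon more often. In introns of 5 to 10 kb the share was 31.3% of 128 peaks (23.9 to 39.7) and 18.5% of sequence. In introns of 10 to 50 kb it was 41.8% of 177 peaks (34.8 to 49.2) and 31.7% of sequence. In introns of 1 to 2 kb, 14 of 76 peaks (18.4%, 11.3 to 28.6) stood beside 5.84% of sequence. In introns of 50 to 100 kb it was 64.6% of 79 peaks (53.6 to 74.2) and 50.7% of sequence. For introns under 1 kb, of 2 to 5 kb and of 100 kb or more, the interval of the peaks covered the share of sequence. With 1 peak per gene the share over all lengths was 23.3%. Sequence was not weighted to the intron lengths of that smaller set, so 23.7% is not its background.

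The host genes were few relative to the peaks. Of 3559 protein-coding genes with at least 2 introns on the 6 chromosomes, 514 held a later-intron peak (14.4%), and 175 held 2 or more (4.92%). Chromosomes 7 and 20 lower this share, with 32.5% of the sequence and 6 peaks. On chromosomes 3, 10, 15 and 22 alone, 508 of 2378 genes were hosts (21.4%, 19.8 to 23.1), and the density was 6.997 peaks per Mb (6.56 to 7.45). In all, 341 genes held exactly 1 peak and 27 held 5 or more. These 27 genes carried 252 peaks (26.0%, 23.3 to 28.9). Long genes were hosts more often. With less than 5 kb of later introns 5.51% of genes held a peak, with 20 to 50 kb 17.7% did, and with 50 to 200 kb 24.3% did. With 200 kb or more it was 22.2% (17.2 to 28.1), which did not differ from the class before it beyond the intervals. Host genes had a median of 42.6 kb of later introns, and the other genes had 17.1 kb. Of the 516 hosts, 191 also had a peak in a coding exon (37.02%, 33.0 to 41.3), 79 in the first intron (15.3%) and 74 near a 5′ end (14.3%). On the 4 chromosomes with most peaks, coding-exon peaks were listed in 36.8% of 508 hosts and 13.6% of 1870 other genes. First-intron peaks were in 15.6% and 4.39%, and peaks near a 5′ end in 14.2% and 8.24%. Hosts had longer introns than other genes, and the part of length in these gaps was not tested. In 178 hosts (34.5%, 30.5 to 38.7) every listed peak lay in a later intron.

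FNDC3B, which encodes a membrane protein of the endoplasmic reticulum with fibronectin domains, carried the most. It held 54 listed peaks, of which 38 lay in later introns and 13 in intron 1. The later-intron peaks fell in 11 of its introns and all 38 were clear of exons. Intron 3, of 93324 bases, held 16 of them, intron 6 held 7, intron 4 held 4 and intron 11 held 3. With 274.1 kb of later introns the gene had 13.9 peaks per 100 kb. Within introns of 5 kb or more, 26 of its 35 peaks lay towards the 5′ splice site. GC content ran from 27.3% to 58.3%, and 24 of the 38 peaks held CCA(G/C/U)C. The peaks ran from intron 2 to intron 23, with 1 each in introns 15 and 23 and the others in introns 2 to 11. No later-intron peaks on chromosome 3 started closer together than 1400 bases, so stacking at 1 site could not be read from this list.

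**Figure D3:**
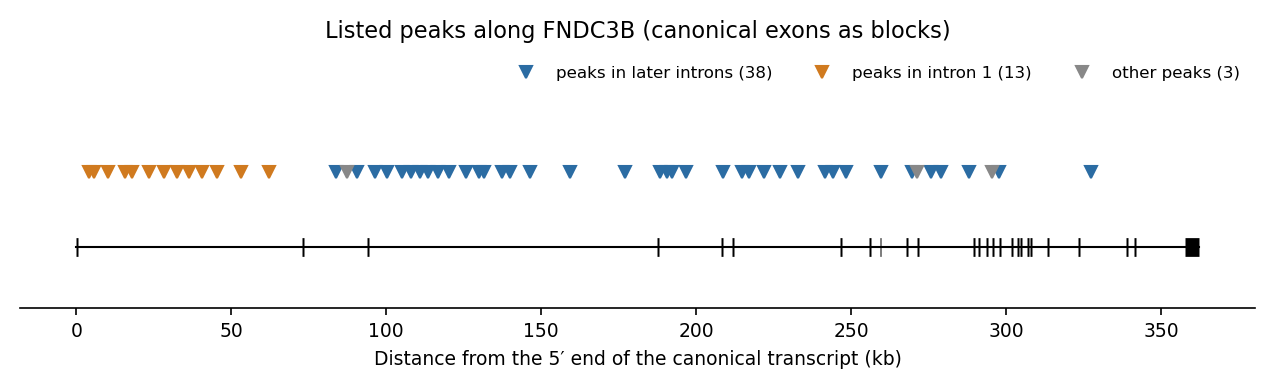
Midpoints of the listed peaks of FNDC3B (triangles) against distance in kb from the 5′ end of the canonical transcript, whose exons are drawn as blocks on the line (the narrowest are widened to be seen). The 38 peaks in later introns ran from intron 2 to intron 23, and 16 of them lay in intron 3.

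ROBO1, a receptor for SLIT proteins, held 19 later-intron peaks, 13 of them in intron 4 of 191700 bases. Its intron 2, at 464284 bases, is longer and held 1. UNC13C, a protein of synaptic vesicle release, held 17, with 7 in intron 2 and 6 in intron 4. IGF1R, the receptor of insulin-like growth factor 1, held 16, of which 13 lay in intron 2, of 183217 bases. IGF2BP2, an RNA-binding protein that acts on IGF2 mRNA, held 13, with 7 in intron 2. In these 4 genes most peaks thus lay in 1 or a pair of long introns. PDE8A, a phosphodiesterase that breaks down cyclic AMP, was unlike them, with 10 peaks spread over 9 introns from intron 6 to intron 21 and 14.4 per 100 kb. LPP, a protein of focal adhesions, held 11, ZBTB20, a transcription repressor, held 10, and TBC1D22A, a GTPase-activating protein, held 9. CACNB2 and TTC28 held 8 each. Relative to length, ROBO1 had 1.94 peaks per 100 kb, LPP 1.73, ZBTB20 1.40 and TTC28 1.27, all below FNDC3B and PDE8A. All later introns together had 0.475 per 100 kb, and 0.70 on the 4 chromosomes alone. These genes were named for their many peaks, so values above that average were partly set by the choice and are no separate result. ANXA2, which encodes a membrane-binding annexin and was chosen after its values were seen, held 6 peaks in 30.6 kb, or 19.6 per 100 kb.

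**Figure D4:**
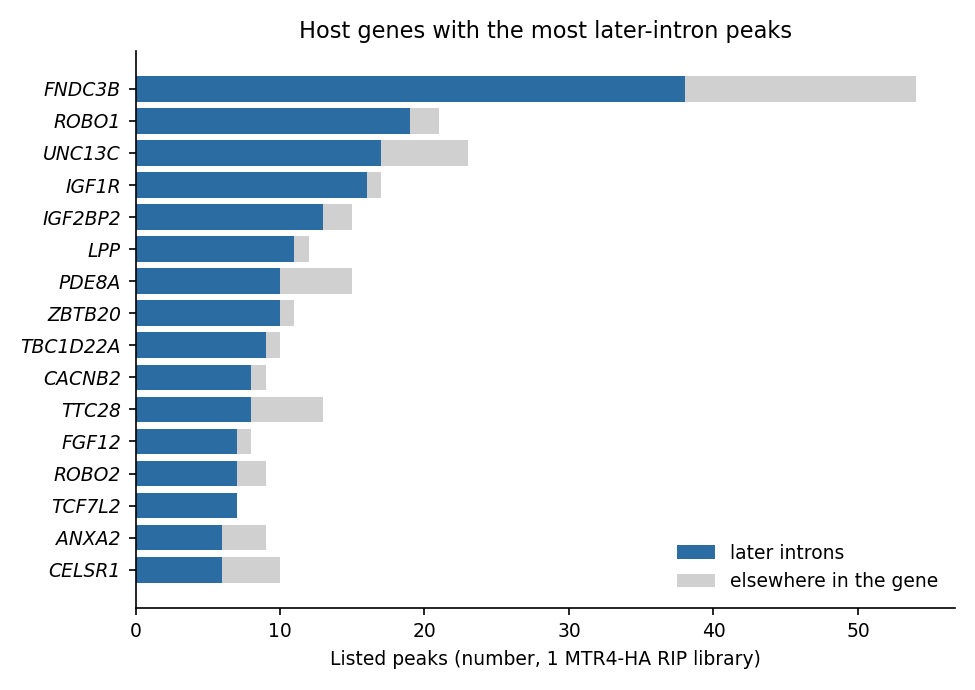
Number of listed peaks per gene for 16 genes with many later-intron peaks, in later introns (blue) and elsewhere in the gene (grey). FNDC3B had 38 and 16, and ROBO1 had 19 and 2.

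Genes were then read by function, in 9 lists chosen with earlier results known. The share of list genes with a later-intron peak has to be read beside 14.4% of all 3559 genes, beside 21.4% on the 4 chromosomes with most peaks, and beside gene length, since lists differ in both length and chromosome. Of the glycolysis genes, 6 lay on the 6 chromosomes and 3 held a peak (50%, 18.8 to 81.2). Apart from PKM these were PFKP, the platelet phosphofructokinase, with 2 peaks in intron 16 of 21, and HKDC1, a hexokinase-like enzyme, with 1 peak in intron 2. The HKDC1 midpoint was 77 bases from an exon and 124 of its 400 bases were exonic. The first PFKP peak was clear of exons and the second shared 113 bases with an exon of another transcript. Of 7 genes of the exosome and its MTR4-containing partners, DIS3L, a cytoplasmic exosome nuclease, held 1 peak (14.3%, 2.57 to 51.3).

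Among splicing factors 6 of 15 held a peak (40%, 19.8 to 64.3), with a median of 16.7 kb of later introns per gene. MBNL1, a regulator of alternative exons, held 4, RBM5 and RBM6 held 3 each, and RBFOX2 held 2. Among chromatin modifiers 10 of 27 held a peak (37.04%, 21.5 to 55.8). The remodeller CHD2 and the demethylase family member JMJD1C held 5 each, and the acetyltransferase EP300 and SETD5 held 3 each. DNA repair and checkpoint genes had 11 of 25 (44%, 26.7 to 62.9), led by TP53BP1 with 3, and the checkpoint genes ATR and TOPBP1 with 2 each, while the helicase gene BLM had 1. Ubiquitin ligases also had 11 of 25, with 4 peaks in HERC1 and 3 each in HERC2, HERC4 and UBR1. Lipid and bile acid genes had 8 of 22 (36.4%, 19.7 to 57.1), among them SREBF2, the regulator of cholesterol synthesis, with 4, and ACAD9, PITPNB and PLD1 with 2, 1 and 1. In these 5 lists the median later-intron length ran from 16.7 to 68.1 kb per gene, against 19.7 kb for all genes, and the densities ran from 8.77 to 16.04 peaks per Mb, beside 4.75 for all. On chromosomes 3, 10, 15 and 22 alone the shares of hosts in these lists ran from 38.1% to 52.4% and the densities from 12.7 to 16.7 per Mb, beside 21.4% and 6.997.

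The lists of very long genes gave other values. Axon guidance and adhesion genes had 11 of 42 (26.2%, 15.3 to 41.1), with ROBO1, ROBO2 (7), the receptor NRP1 (4) and the integrin ITGB5 (3) in front. Tumour suppressor and fragile site genes had 9 of 25 (36.0%, 20.3 to 55.5), among them ROBO1, TTC28, FHIT (3) and the polarity gene PARD3 (3). Their median later-intron lengths were 150.7 and 129.5 kb. The densities were 3.97 and 3.95 peaks per Mb, against 4.75 for all genes. The value for all genes includes the dense short introns, and introns of 10 kb or more held only 2.65 to 2.96 per Mb. A value matched for length was not computed. ROBO1, with 19 peaks, counts in both lists. On the 4 chromosomes alone 30.6% and 40.9% of the genes were hosts, beside 21.4%, and the densities were 4.36 and 5.76 per Mb, beside 6.997.

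Sequence features were read in all 400 bases on the strand of the host gene, and set beside first-intron peaks and beside 505493 windows of 400 bases from later introns without a peak. Of later-intron peaks 24.5% had a GC content of 50% or more (21.9 to 27.3), against 22.3% of first-intron peaks and 14.8% of windows. Mean GC content was 44% ± 9.18 (SD, n = 969) in later-intron peaks, 44.3% ± 8.72 (SD, n = 318) in first-intron peaks and 41.3% in later-intron windows. Against windows of the same intron the gap was small. In 643 peaks whose intron held at least 5 windows, GC content averaged 42.8% and that of their introns 41.8%, and 347 peaks (54.0%, 50.1 to 57.8) were above their own intron. GC content also differed by chromosome, and 54.2% of the peaks on chromosome 22 reached 50% GC, against 16.4% on chromosome 15.

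The poly(A)-like motif was held by 30 of 969 peaks (3.10%, 2.18 to 4.39), by 8 of 318 first-intron peaks (2.52%) and by 4.74% of windows. The motif CCA(G/C/U)C was held by 691 (71.3%, 68.4 to 74.1), by 71.7% of first-intron peaks and by 68.8% of windows. Any intronic stretch of this length is thus likely to hold this shorter reading of the motif. Windows were not counted for the longer form in the study's figure legend. A run of 8 A, which can lie within the poly(A)-like motif, was held by 94 peaks (9.70%, 7.99 to 11.7) and 10.6% of windows. AATAAA, the hexamer of the poly(A) signal, was held by 191 peaks (19.7%, 17.3 to 22.3), 21.4% of first-intron peaks and 26.7% of windows. The letters TGTAATCCC or their reverse complement GGGATTACA, searched as a marker of Alu elements (short repeats scattered through introns), were held by 90 peaks (9.29%, 7.62 to 11.3) and 11.8% of windows. CTCTCT, a pyrimidine hexamer of the kind bound by PTBP1, was held by 155 peaks (16%, 13.8 to 18.4), 13.2% of first-intron peaks and 15.3% of windows. None of the 7 features passed the threshold of 0.05 between later-intron and first-intron peaks (Fisher's exact test, two-sided, adjusted p from 0.822 to 0.943 over 7 features), and 0 had an unadjusted p under 0.05. The differences ran from −1.67 to 2.79 percentage points.

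Windows of the host introns gave a closer background for the 643 peaks with enough of them. The poly(A)-like motif stood at 3.73% in peaks (2.52 to 5.49) and 5.17% in windows, and AATAAA at 21.8% (18.8 to 25.1) and 24.8%. The Alu marker was at 11.2% (8.99 to 13.9) and 14.6%, which was the only feature whose interval in peaks left out the value of the windows. CTCTCT was at 16.8% (14.1 to 19.9) and 15%. Alu elements have many near-identical copies in the genome, and how the mapping treated reads that fit several of them was not stated, so its part in this gap was not tested.

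**Figure D5:**
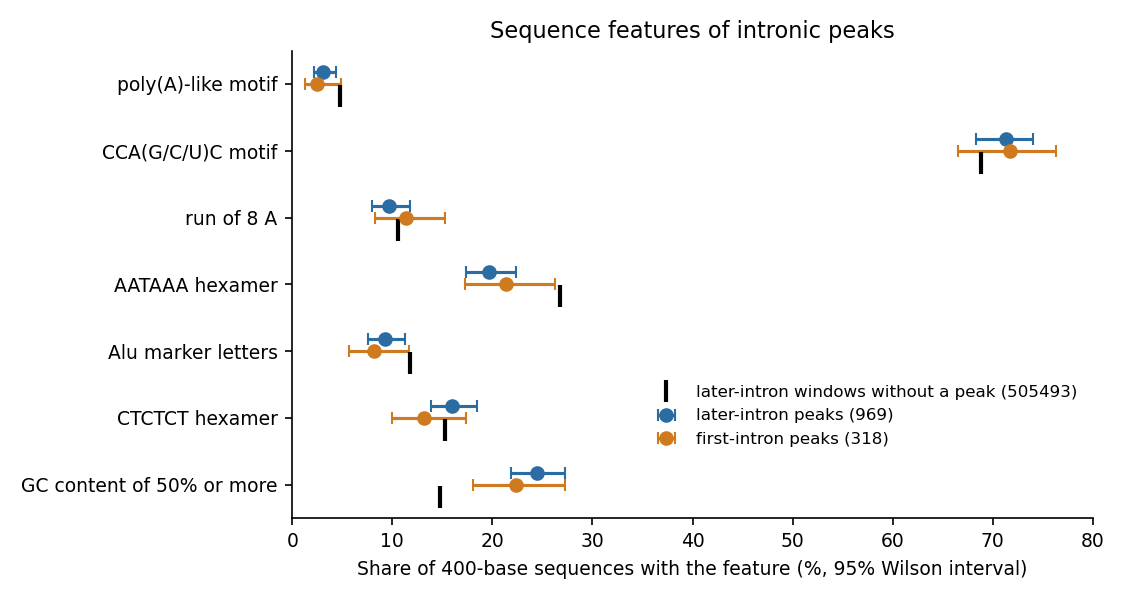
Share of 400-base sequences with each feature, in percent with Wilson 95% intervals, in 969 later-intron peaks (blue) and 318 first-intron peaks (orange), with the share in 505493 later-intron windows without a peak as a black bar. The intervals of both peak classes overlapped for every feature, and GC content of 50% or more stood at 24.5% in later-intron peaks against 14.8% in windows.

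The 30 peaks with the poly(A)-like motif lay in 29 genes, so that they did not come from a few transcripts. IREB2, which encodes an iron-responsive RNA-binding protein and was chosen after its values were seen, held 2 of them, in introns 2 and 9. Of the 30, 25 were clear of exons, 24 also held a run of 8 A and 14 held the Alu marker. Their distances to a canonical exon ran from 6 to 76163 bases with a median of 3708.5, and GC content ran from 29.3% to 57.0%. In file order the first 8 were in CACNB2, ANXA11 (an annexin), UBE3A, TJP1 (a tight junction protein), GOLM2 (a Golgi membrane protein), SPG11, FAM227B and TMOD3 (which caps actin filaments). The SPG11 peak lay in an intron of 285 bases and shared 115 of its bases with exons, whereas that of CACNB2 was 35082 bases from the nearest exon.

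Small RNA genes lay within 1000 bases of 9 peaks (0.929%, 0.489 to 1.76), and of 0.549% of later-intron windows, a value within the interval. snoRNA genes were near 4, in STARD9, RPL3, RPSA and GNL3, and miRNA genes near 5, in PRKG1, CCAR1, TLE3, ATP2B2 and LPP. Only the CCAR1 peak overlapped its small RNA gene, MIR1254-1. No snRNA or scaRNA gene lay as near. RPL3 and RPSA encode ribosomal proteins, and their peaks were 689 bases from SNORD83A and 271 bases from SNORA6. The peak of GNL3, which encodes nucleostemin, was 796 bases from SNORD19B and held 142 exonic bases.

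The peaks farthest from a canonical exon lay in genes with very long introns. The FHIT peak lay 194591 bases from one, in intron 5 of 522714 bases, and 193541 bases from an exon of any kind. FHIT encodes a hydrolase and spans a common fragile site. Distances of 155672 bases in ROBO1, 147512 in PRKG1, 140999 in UBE2E2 and 140711 in ROBO2 followed. Those of ROBO1 and PRKG1 were only 1916 and 1187 bases from an exon of another transcript. At the other end, midpoints lay 4 bases from an exon in CTDSPL2, 5 in KNL1, a kinetochore protein, 5 in SLC4A7 and 6 in APOBEC3B, a cytidine deaminase. The nearest of all, at 3 bases, was in a gene with no symbol in the annotation. Starts fell on steps of 100 bases on chromosomes 3, 10 and 22 and of 105 bases on chromosome 15, so a distance of a few bases is finer than the placement of a peak.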

How the data were processed

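The list covers 1 anti-HA and 1 IgG library of PLC/PRF5 cells, with no replicate. Per the methods of the study and the submitters' processing notes, reads were trimmed, mapped to hg19 with TopHat2 2.0.13 and called with RIPSeeker; the caller's settings and the use of the IgG library are not given in the sources used here. The score the authors deposited was 60 or 1 and was not used, nor was the strand, which was + throughout. No counts were listed, so depth is unknown. Of the columns, 0 belong to other samples.

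Start positions were read as counting from 0 and printed counting from 1, and midpoints were set 200 bases after the start. Genes and exons came from GENCODE release 44 on GRCh37 (the same build), with symbols as annotated. Allowed sequence is every position that meets the same conditions on the 6 chromosomes with 30 or more peaks. Windows of 400 bases were laid end to end over it. Intervals are 95% Wilson or exact Poisson intervals and cover counting error only. Features were compared with Fisher's exact test (scipy 1.17.1, Python 3.11.15) and Benjamini-Hochberg adjustment over 7 features at a threshold of 0.05. The poly(A)-like and CCA(G/C/U)C motifs were read on the gene's strand, the Alu marker on both. The steps were tested on simulated positions. The regions, lists and naming rule were chosen with earlier results of these data known. The rule named PKM and other glycolysis hosts, the 10 genes with most peaks and those of the 5 introns with most, up to 4 genes per list, 8 genes with the poly(A)-like motif, the 5 peaks nearest to and farthest from exons and of highest intron rank, and genes near small RNAs. Of these, 1 gene is not reported here. The alternatives left out peaks that touch exons, kept 1 peak per gene, left out each chromosome or changed the motif, strand or window. The backgrounds on chromosomes 3, 10, 15 and 22 alone were added after the data were seen.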

Additional observations from a re-analysis of the deposited data

How the results depend on the processing

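No paired analysis was possible because there was no replicate to pair. Of 96 alternative values, 67 were counted as unchanged. A feature comparison was counted so if its difference kept its sign, and any other value if it stayed near the main value. Another 14 values, none of them from feature comparisons, moved away from the main value, and 15 feature differences changed sign. No feature passed the threshold in any of 55 feature comparisons. Their adjusted p ran from 0.233 to 1, and 1 had an unadjusted p under 0.05 (GC content with 1 peak per gene, a difference of 8.53 points from 2.13, Fisher's exact test, p = 0.0333). Others that kept their sign also grew, as CCA(G/C/U)C did from −0.387 to −4.84 in the central 200 bases and AATAAA from −1.67 to −5.43 with 1 peak per gene. Keeping only peaks clear of exons left 642 peaks in 332 genes, with a median exon distance of 3484 bases and 37.9% in introns with an alternative exon. It took the density ratio of introns under 1 kb to those of 100 kb or more from 14.5 to 8.92, and that of intron 2 to introns after the 10th from 0.745 to 0.987. With 1 peak per gene the distance was 415.5 bases, the share towards the 5′ splice site 52.7% and the share with an alternative exon 23.3%. The 5′ share was 60.6% in introns of 5 kb or more and, chosen after the data were seen, 61.9% there for peaks clear of exons. The median distance was 888 bases without chromosome 10 and 873 to exons of any transcript of the host. Requiring 2 or more peaks left 175 genes. Differences from first introns that changed sign, in percentage points, were all past no threshold. The poly(A)-like motif gave −0.715 with 1 peak per gene and −0.82 on the opposite strand. CCA(G/C/U)C gave 0.644 without chromosome 3, 1.06 without chromosome 15 and 2.21 with the other reading, which has a G after CCA. A run of 8 A gave 0.237 in the central 200 bases and 2.08 on the opposite strand. AATAAA gave 0.954 without chromosome 3 and 1.1 clear of exons. The Alu marker gave −2.7 with 1 peak per gene and −0.805 in the central 200 bases, where CTCTCT gave −0.446 and GC content −1.93. GC content gave −0.739 without chromosome 3 and −3.16 clear of exons. The cause was not tested. With 1 library and no read counts, the list limits what can be said to the positions of peaks.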
